A study of Mus musculus with 6 samples.

Results

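Genes that mark the fields of the hippocampal formation were followed in the subiculum and retrosplenial cortex of newborn mice. The list held 44 textbook markers, of which 42 were measured among the 18193 genes on the array. It was divided into 14 CA1 genes (13 measured), 20 genes of CA3 and the dentate gyrus (19 measured), and 10 genes of the subiculum and neighbouring cortex (all measured). Several of these genes mark more than 1 region, so the division follows the order of the list and textbook use, and it is least certain for Sertm1 and Rasgrp1. Zbtb20os and Stxbp6os matched no probe set by name and were not analysed here. Nov was read under its current symbol, Ccn3.

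Both groups were on the C57BL/6 background and were taken on postnatal day 1. The first group was D6/Zbtb20S transgenic mice, from which the subiculum and retrosplenial cortex, described by the submitters as transformed towards CA1, were dissected together. The second was wildtype littermates, from which the corresponding areas were taken. Each group had 3 arrays, each array held RNA pooled from 7 animals, and nothing in the labels says whether the pools came from separate litters. D6 is a regulatory element of the Dach1 gene that is active in developing cortical and hippocampal neurons, and Zbtb20S is the short form of the zinc finger repressor Zbtb20. The measurements describe mixed tissue, in which fewer cells of a type and less RNA per cell cannot be told apart.

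The hippocampal formation is a chain of fields, from the dentate gyrus through CA3 and CA1 to the subiculum, which borders the retrosplenial cortex. Each field has its own principal neurons, which acquire distinct sets of expressed genes around birth. Zbtb20 is normally expressed by developing hippocampal pyramidal neurons, and mice that lack it fail to form a proper CA1.

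Signals are RMA values on a log2 scale, 1 per probe set, and a gene with several probe sets was read on the one with the highest mean over the 6 arrays. Changes are D6/Zbtb20S minus wildtype on that scale, ± the standard error, and a gene passed the test when its limma p, adjusted by Benjamini-Hochberg over all genes, was under 0.05. Array medians ran from 3.83 to 3.97. Zbtb20 itself was read on 9 probe sets. The one with the highest mean, 1437598_at, was at 8.11, 8.26 and 8.25 in D6/Zbtb20S tissue and at 8.15, 7.90 and 8.98 in wildtype tissue, a change of -0.14 ± 0.24 that did not pass. Only 1422064_a_at passed, and it is given for that reason, outside the rule of the highest mean. On it Zbtb20 was at 8.88, 9.10 and 8.94 in D6/Zbtb20S tissue and at 6.44, 5.84 and 7.64 in wildtype tissue, a change of 2.33 ± 0.37 (limma adjusted p = 0.00904 over all probe sets). The other 8 sets had changes from -0.37 to 0.85, 4 of them negative. Wildtype replicate 3 read highest of its group on all 9 sets. Without that array 14 of the 15 members that passed kept their call and Elavl4 lost it, while Nnat gained one.

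Of the 42 measured markers, 15 passed the test, 6 higher and 9 lower in D6/Zbtb20S tissue. Over all genes 7.71% passed, 4.06% higher and 3.64% lower. Among genes with signal above the array median on at least 3 arrays the share was 11.9%, and 15 of 30 such members passed. Dok5 and Cxcl14 met that filter only through the wildtype arrays, where they were higher, so the filter is not independent of the changes. The median change of the members was -0.02, against -0.02 over all genes, and their median absolute change was 0.32, against 0.10. The groups did not overlap on 21 members, 8 with every D6/Zbtb20S array above wildtype and 13 with every one below, where 12.9% and 13.2% of all genes did so. At least 2-fold, 2 members rose and 5 fell, where 1.45% of all genes passed at that size. The members were known brain genes listed with earlier results of these arrays in view, so these shares describe the list and are not a test of it.

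**Figure D1:**
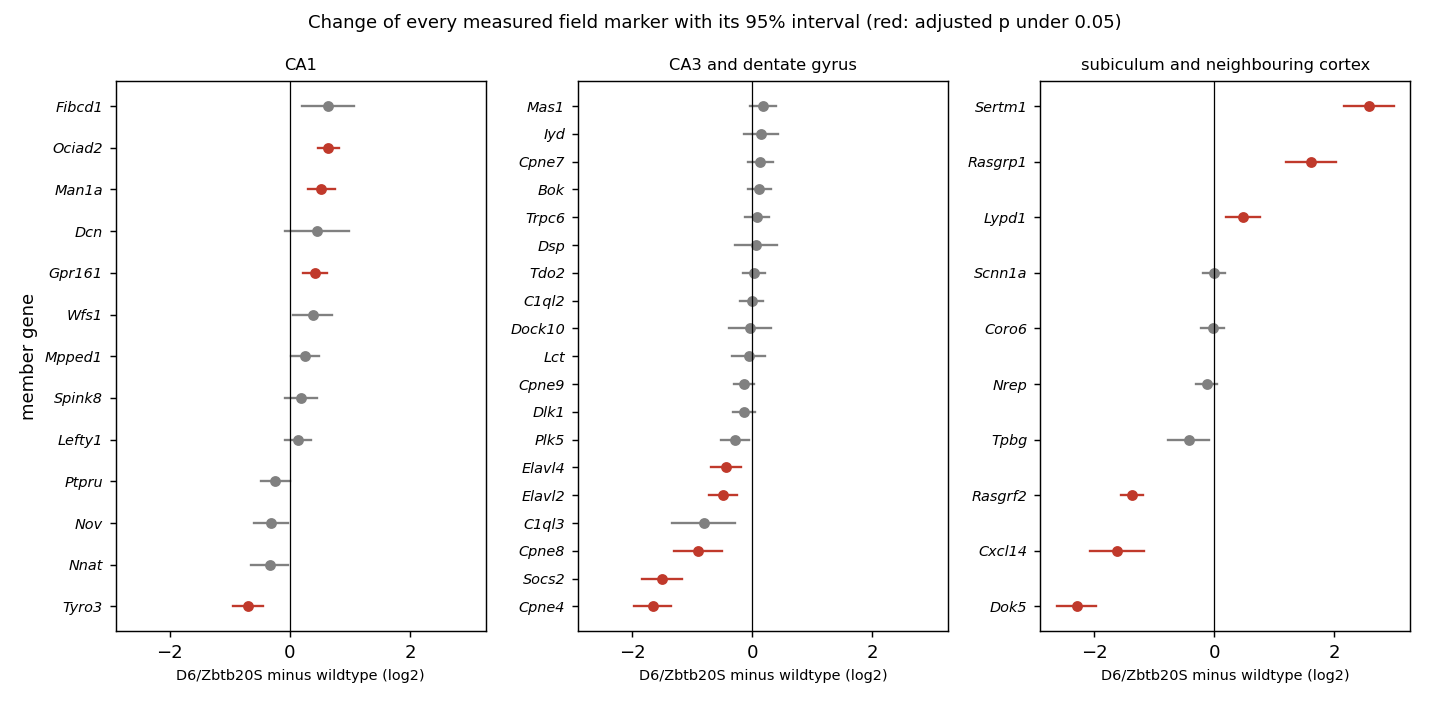
Change of each of the 42 measured members (D6/Zbtb20S minus wildtype, log2, horizontal axis) with its 95% interval from the moderated fit, 1 panel per field group, with members past the threshold in red. Calls in the CA3 and dentate gyrus panel are all below 0, and the widest span, from -2.29 for Dok5 to 2.58 for Sertm1, is in the panel of the subiculum and neighbouring cortex. The placing of Sertm1 and Rasgrp1 in that panel is uncertain.

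Other cell types in the dissected tissue were followed through their markers, and over all genes 4.06% passed as higher and 3.64% as lower. Of 12 microglial genes 4 rose and 0 fell (median change 0.40), and their summed signal on the linear scale was 857 to 991 in D6/Zbtb20S arrays and 665 to 702 in wildtype arrays. Of 10 measured genes of the oligodendrocyte lineage 4 fell and 0 rose (median -0.27), with sums of 751 to 847 in D6/Zbtb20S arrays and 1024 to 1220 in wildtype arrays; Mag and Mog were under the array median on every array. Of 13 GABAergic genes 2 fell and 0 rose (median -0.13), with sums of 919 to 965 in D6/Zbtb20S arrays and 1107 to 1171 in wildtype arrays. No gene passed among 12 of meninges and fibroblasts, 8 of choroid plexus, 6 of Cajal-Retzius cells and 6 of striatum and septum. The part of these cells in the changes of the field markers was not tested.

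Of the 13 CA1 genes 3 rose, 1 fell and 9 did not pass, where 4.06% of all genes rose and 3.64% fell. The CA1 genes that rose were Ociad2, Man1a and Gpr161, each by less than 2-fold. The CA1 gene that fell was the receptor kinase Tyro3. The median change of the CA1 genes was 0.26, with 9 changes positive and 4 negative. None of the best-known CA1 pyramidal cell markers, Wfs1, Fibcd1 and Spink8, passed the test, though all of their changes were positive. Wfs1 passed in 2 of 14 alternative fits, with a replicate block and with array weights (limma adjusted p = 0.0355 and 0.0362). Fibcd1 passed in 3 of 13. These were equal array medians, array weights and the fit without D6/Zbtb20S replicate 2 (limma adjusted p = 0.0354, 0.0340 and 0.0281). Spink8 passed in none.

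Ociad2 encodes a membrane protein of mitochondria and endosomes with an OCIA domain. Its signal was 6.41, 6.45 and 6.41 in D6/Zbtb20S tissue and 5.69, 5.82 and 5.84 in wildtype tissue. The transgenic arrays lay within a narrow band above every wildtype array. The change was 0.64 ± 0.08, or 1.56-fold (adjusted p = 0.000859), and the other Ociad2 probe set, 1453187_at, also rose, by 0.45 ± 0.09 (adjusted p = 0.0230 over all probe sets).

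Man1a encodes a Golgi mannosidase that trims N-glycans. It was at 6.81, 6.78 and 6.86 in D6/Zbtb20S tissue and at 6.11, 6.27 and 6.49 in wildtype tissue. The groups did not overlap, and the change was 0.53 ± 0.10, or 1.44-fold (adjusted p = 0.0120). On 1417110_at the change was larger, at 0.92 ± 0.12 (adjusted p = 0.0035 over all probe sets), with 5.17, 4.77 and 5.17 in D6/Zbtb20S tissue and 4.16, 4.18 and 4.01 in wildtype tissue. Man1a missed the threshold without wildtype replicate 2 (adjusted p = 0.0563) and without D6/Zbtb20S replicate 1 (adjusted p = 0.0530).

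Gpr161, an orphan receptor of the primary cilium that restrains hedgehog signalling, was at 7.73, 7.86 and 7.98 in D6/Zbtb20S tissue and at 7.39, 7.44 and 7.49 in wildtype tissue. Every transgenic array lay above every wildtype one, with a change of 0.42 ± 0.09 (adjusted p = 0.0172). Dropping wildtype replicate 3 or D6/Zbtb20S replicate 1 left the call in place, and dropping any of the other 4 arrays ended it (adjusted p = 0.0530 to 0.0749). The second Gpr161 probe set, 1447353_at, lay near 2 on all arrays and did not pass (0.07 ± 0.11).

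Tyro3 belongs with Axl and Mertk to the TAM receptors, which bind Gas6 and protein S. It was at 4.72, 4.48 and 4.92 in D6/Zbtb20S tissue and at 5.34, 5.46 and 5.41 in wildtype tissue. All transgenic arrays lay below the wildtype ones, and the change was -0.70 ± 0.11 (adjusted p = 0.00449). The other Tyro3 probe set, 1425249_a_at, changed by -0.06 ± 0.08 and did not pass.

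The 9 CA1 genes that did not pass ranged in change from -0.34 to 0.64. Wfs1, which encodes wolframin of the endoplasmic reticulum, read 6.30, 6.04 and 6.47 in D6/Zbtb20S tissue and 5.97, 5.60 and 6.09 in wildtype tissue. The groups overlapped, and the interval of its change, 0.38, ran from 0.05 to 0.71 (adjusted p = 0.172). Fibcd1, an acetyl-group-binding membrane receptor, read 3.99, 3.67 and 4.52 in D6/Zbtb20S tissue and 3.66, 3.36 and 3.24 in wildtype tissue, without overlap (0.64 ± 0.19, adjusted p = 0.0829). Its wildtype arrays were all under the array median, where RMA compresses changes. The protease inhibitor gene Spink8 was under the array median on all 6 arrays, with a change of 0.19 and an interval from -0.08 to 0.46.

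Mpped1, a metallophosphoesterase-domain gene, was higher on every transgenic array without passing (8.32, 8.40 and 8.39 in D6/Zbtb20S tissue, 8.25, 8.20 and 7.89 in wildtype tissue; adjusted p = 0.197). Changes of 0.14 for the Nodal antagonist Lefty1, -0.31 for the matricellular gene Nov, -0.34 for the imprinted gene Nnat and -0.24 for the receptor phosphatase Ptpru did not pass either (adjusted p from 0.190 to 0.481). Dcn, the proteoglycan decorin, is a marker of ventral CA1 and also of fibroblasts and meninges. It read 6.19, 5.55 and 6.45 in D6/Zbtb20S tissue and 5.39, 5.38 and 6.06 in wildtype tissue, and its change of 0.46 had an interval from -0.08 to 0.99. Replicate 3 was the highest array of each group for Dcn, and likewise in both groups for 7 of the 12 genes of meninges and fibroblasts. Between the groups that list had a median change of -0.15, with 3 changes positive and 9 negative. Its summed signals overlapped (728 to 1339 in D6/Zbtb20S arrays, 930 to 1385 in wildtype arrays). The part of meninges and fibroblasts in the Dcn change was not tested.

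**Figure D2:**
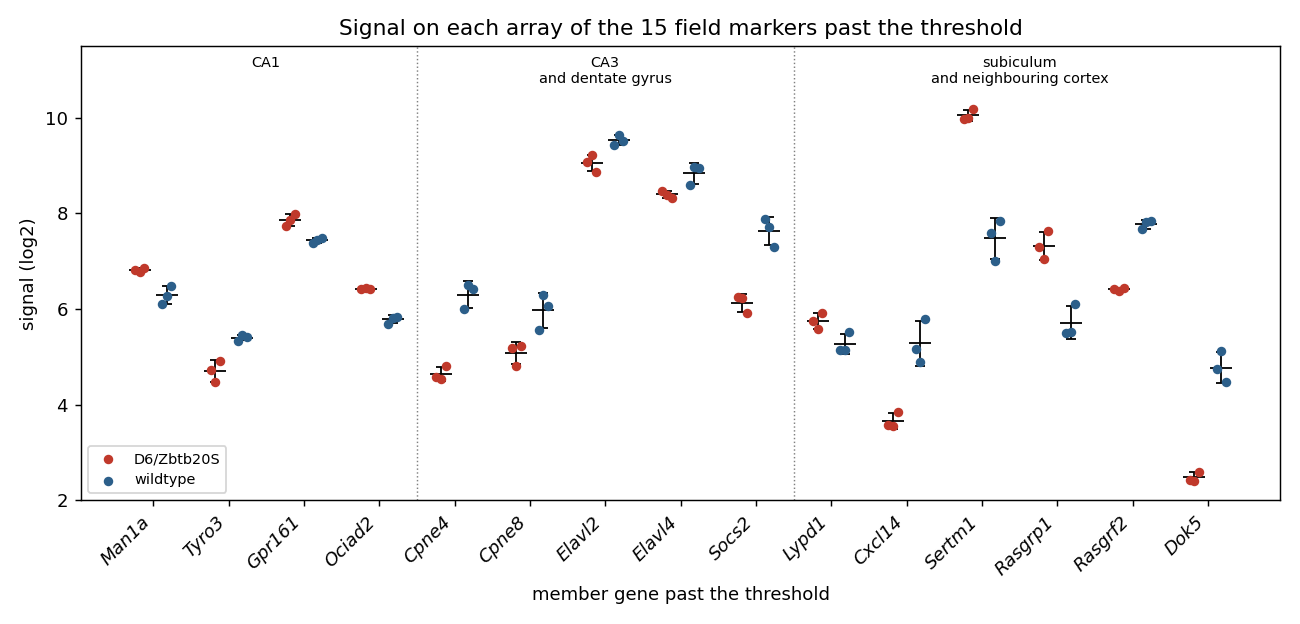
Log2 signal on every array (vertical axis) of the 15 members past the threshold, grouped by field, with D6/Zbtb20S arrays in red to the left of wildtype arrays in blue and black bars for the mean ± SD of 3 arrays. In each of these members the red points lie entirely above or entirely below the blue ones.

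Of the 19 genes of CA3 and the dentate gyrus 0 rose, 5 fell and 14 did not pass. The losses, read on the probe set of highest mean, were 2 copines, 2 neuronal Elavl genes and the cytokine signalling suppressor Socs2. The median change was -0.06. The groups did not overlap on 8 of these genes, with the D6/Zbtb20S arrays below wildtype in all 8. Over all genes 13.2% lay below wildtype in this way, and 3.64% passed as lower. Among the 8, C1ql3, Cpne9 and Dlk1 did not pass. Dim signal limits this group, since Dsp, Tdo2, Iyd, Trpc6, Lct, Cpne9, Mas1 and Dlk1 were under the array median on every array. By the labels neither CA3 nor the dentate gyrus was dissected. Of 10 further markers of these fields, only Prox1, which defines dentate granule cells, was also under the array median on every array; the other 9 were above it on at least 1 array of each group.

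Copines are calcium-dependent phospholipid-binding proteins. Cpne4 read 4.58, 4.55 and 4.804 in D6/Zbtb20S tissue and 5.99, 6.50 and 6.42 in wildtype tissue. The groups were far apart relative to their spread, and Cpne4 fell by 1.66 ± 0.14 on the log2 scale, or 3.16-fold (adjusted p = 7.14e-05). Its dimmer probe set, 1453888_at, lay between 2.13 and 2.55 and did not pass (-0.19 ± 0.09).

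Cpne8 read 5.19, 4.81 and 5.23 in D6/Zbtb20S tissue and 5.57, 6.30 and 6.06 in wildtype tissue. It fell by 0.90 ± 0.18 on the log2 scale, or 1.86-fold (adjusted p = 0.0141), with wildtype replicate 1 the wildtype array nearest to the transgenic ones. The call was lost without wildtype replicate 2 (adjusted p = 0.0543) and without D6/Zbtb20S replicate 2 (adjusted p = 0.0532), and neither of the other Cpne8 probe sets passed. Of the remaining copines, Cpne7 changed by 0.14 ± 0.09 and Cpne9, dim on all arrays, by -0.14 ± 0.08, and neither passed (adjusted p = 0.477 and 0.365). A test of the difference between copines was not made.

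Elavl2 and Elavl4 encode neuronal RNA-binding proteins that stabilise messages and regulate splicing. Elavl2 read 9.07, 9.21 and 8.87 in D6/Zbtb20S tissue and 9.44, 9.64 and 9.52 in wildtype tissue on 1421883_at, a fall without overlap (-0.48 ± 0.10, adjusted p = 0.0200). Its 4 other probe sets did not pass, with changes from -0.15 to 0.22. Among them 1421882_a_at was nearly as bright, with means of 8.96 in D6/Zbtb20S and 8.93 in wildtype tissue, and changed by 0.03 ± 0.11. Averaged over all 5 sets the Elavl2 change was -0.06 (adjusted p = 0.733). Dropping wildtype replicate 2 also ended the Elavl2 call (adjusted p = 0.0988), and so did dropping replicate 1 (adjusted p = 0.0751) or replicate 3 (adjusted p = 0.0576) of the D6/Zbtb20S group.

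Elavl4 read 8.47, 8.39 and 8.32 in D6/Zbtb20S tissue and 8.59, 8.97 and 8.94 in wildtype tissue on 1452894_at (-0.44 ± 0.11, adjusted p = 0.0427). That call was the least stable of the 15, since among fits on 5 arrays it was kept only with wildtype replicate 1 dropped (adjusted p of 0.0982 to 0.177 with any other array dropped). Another Elavl4 probe set, 1450258_a_at, read 6.80, 6.86 and 7.13 in D6/Zbtb20S tissue and 7.40, 7.76 and 7.60 in wildtype tissue. It passed over all probe sets, with a fall of 0.66 ± 0.12 on the log2 scale (adjusted p = 0.0180), while the third set changed by -0.15 ± 0.15.

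Socs2 encodes an inhibitor of growth hormone receptor signalling. It read 6.25, 6.22 and 5.91 in D6/Zbtb20S tissue and 7.88, 7.72 and 7.31 in wildtype tissue. The gap between the groups exceeded the spread within either, and Socs2 fell by 1.505 ± 0.15 on the log2 scale, or 2.84-fold (adjusted p = 0.000239). Among its 6 probe sets 3 passed and fell. On 1449109_at the signal was 5.68, 5.74 and 5.70 in D6/Zbtb20S tissue and 6.76, 6.91 and 6.69 in wildtype tissue (-1.08 ± 0.08, adjusted p = 0.0003 over all probe sets), and on 1438470_at the change was -1.13 ± 0.16 (adjusted p = 0.0054 over all probe sets). The other 3 sets had changes from -0.21 to -0.15 and did not pass.

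C1ql2 and C1ql3 encode secreted C1q-like proteins that organise mossy fibre synapses. C1ql3 read 4.58, 4.19 and 4.50 in D6/Zbtb20S tissue and 4.74, 5.12 and 5.83 in wildtype tissue. The transgenic arrays were all lower, but the wildtype arrays were widely spread, and the change of -0.81 ± 0.23 did not pass (adjusted p = 0.0688). C1ql3 passed with arrays set to equal medians (adjusted p = 0.0212), after quantile normalization (adjusted p = 0.0305) and without wildtype replicate 1 (adjusted p = 0.0188). C1ql2 changed by -0.01, with an interval from -0.20 to 0.18.

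The remaining genes of this group ranged in change from -0.29 for the polo-like kinase gene Plk5 to 0.18 for the angiotensin-(1-7) receptor gene Mas1, and none passed. Plk5 had the smallest p among them (adjusted p = 0.139). The Bcl2-family gene Bok, well above the array median, read 7.60, 7.55 and 7.64 in D6/Zbtb20S tissue and 7.56, 7.52 and 7.35 in wildtype tissue, a change of 0.12 with an interval from -0.07 to 0.31. Dock10 changed by -0.04, with an interval from -0.38 to 0.31. For desmoplakin (Dsp), tryptophan dioxygenase (Tdo2), iodotyrosine deiodinase (Iyd), the channel Trpc6, lactase (Lct) and the Notch-ligand-like gene Dlk1, which were dim throughout, changes lay between -0.14 and 0.15.

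Of the 10 genes of the subiculum and neighbouring cortex 3 rose, 3 fell and 4 did not pass. This group held the largest changes of the list in both directions. The shares of all genes that passed were 4.06% higher and 3.64% lower. Sertm1 and Rasgrp1 rose by 5.96-fold and 3.05-fold, while Dok5, Cxcl14 and Rasgrf2 fell by 4.91-fold, 3.07-fold and 2.58-fold. Sertm1 and Rasgrp1 are the members whose field is least certain, so their rises may not be those of subiculum markers. The remaining rise, that of Lypd1, was just past the threshold (limma adjusted p = 0.0492). In the order of all 18193 changes Sertm1 was number 3 from the top and Dok5 number 13 from the bottom.

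Start regions are shown for members with large changes in each direction. RefSeq promoter windows (250 bases before to 50 bases after the start, build GRCm38.p6) were found for 33 members, 13 of them past the threshold, and Dok5 and Socs2 were not among them. Printed are the 2 largest rises and the 2 largest falls among members past the threshold with a single window. Cpne4, which fell by more than either printed gene, had 2 windows and is not printed. Capitals mark CAGATG (an E-box of neuronal bHLH factors), CAGCTG (another E-box), TATAAA and CCAAT, searched on both strands, so that CCAAT appears as ATTGG where it lies on the opposite strand.
Sertm1, chr3:54915838-54916137, minus strand: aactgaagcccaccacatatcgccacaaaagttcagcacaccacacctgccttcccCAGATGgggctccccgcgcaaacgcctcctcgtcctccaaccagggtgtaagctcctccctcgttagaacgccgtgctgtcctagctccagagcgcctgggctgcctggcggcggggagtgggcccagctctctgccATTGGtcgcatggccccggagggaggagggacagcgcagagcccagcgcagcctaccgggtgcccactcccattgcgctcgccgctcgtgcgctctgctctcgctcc
Rasgrp1, chr2:117342828-117343127, minus strand: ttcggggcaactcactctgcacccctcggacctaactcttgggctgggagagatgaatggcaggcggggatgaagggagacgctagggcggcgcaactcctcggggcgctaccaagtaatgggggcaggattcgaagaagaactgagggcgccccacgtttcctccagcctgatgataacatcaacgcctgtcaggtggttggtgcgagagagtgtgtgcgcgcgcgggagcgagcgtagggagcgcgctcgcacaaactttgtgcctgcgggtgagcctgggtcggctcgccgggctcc
Cxcl14, chr13:56296502-56296801, minus strand: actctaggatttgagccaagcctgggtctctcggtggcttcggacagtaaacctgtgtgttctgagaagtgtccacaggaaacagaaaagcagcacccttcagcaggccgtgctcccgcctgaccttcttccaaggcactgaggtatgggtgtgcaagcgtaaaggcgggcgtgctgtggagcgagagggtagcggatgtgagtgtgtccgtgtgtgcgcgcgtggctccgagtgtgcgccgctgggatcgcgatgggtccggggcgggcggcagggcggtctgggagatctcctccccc
Rasgrf2, chr13:92131779-92132078, minus strand: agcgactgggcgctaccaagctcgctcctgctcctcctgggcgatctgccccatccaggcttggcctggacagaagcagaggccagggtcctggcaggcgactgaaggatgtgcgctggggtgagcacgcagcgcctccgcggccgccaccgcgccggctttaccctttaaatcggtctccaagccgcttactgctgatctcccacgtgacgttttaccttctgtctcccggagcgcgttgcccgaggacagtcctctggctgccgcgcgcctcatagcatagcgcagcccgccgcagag
The Sertm1 window held 1 CAGATG and 1 CCAAT, and the windows of Rasgrp1, Cxcl14 and Rasgrf2 held none of these motifs. Counting any window of a gene, CAGATG was found in 3 of the 13 members past the threshold, CAGCTG in 3, TATAAA in 1 and CCAAT in 8. Counted the same way over the 27025 genes with a window, the shares were 19.2%, 18.3%, 15.7% and 41.1%. Members past the threshold had up to 6 windows each (Elavl2), which gives a motif more chances than a single window does. CG dinucleotides numbered 22 in Sertm1, 26 in Rasgrp1, 22 in Cxcl14 and 28 in Rasgrf2, where the median window held 7.

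Sertm1 encodes a small serine-rich transmembrane protein. It read 9.97, 10.004 and 10.19 in D6/Zbtb20S tissue and 7.59, 7.001 and 7.85 in wildtype tissue, so that the lowest transgenic array lay well above the highest wildtype one. The change was 2.58 ± 0.18 (adjusted p = 3.72e-05) on the only probe set of the gene. With any single array dropped it lay between 2.34 and 2.76.

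Rasgrp1 and Rasgrf2 both encode exchange factors that activate Ras, the first controlled by diacylglycerol and the second by calcium and calmodulin. Rasgrp1 read 7.30, 7.04 and 7.63 in D6/Zbtb20S tissue and 5.50, 5.53 and 6.12 in wildtype tissue, without overlap, a change of 1.61 ± 0.18 (adjusted p = 0.000586). Its 3 other probe sets were dim and did not pass, with changes from -0.02 to 0.18. Rasgrf2, a marker of upper cortical layers, read 6.43, 6.37 and 6.43 in D6/Zbtb20S tissue and 7.67, 7.81 and 7.85 in wildtype tissue. It fell by 1.37 ± 0.08 on the log2 scale (adjusted p = 1.31e-05), with a narrow spread in both groups, and neither of its dimmer probe sets passed. These exchange factors thus changed in opposite directions, each past the threshold.

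Dok5, a docking protein downstream of receptor tyrosine kinases, read 2.43, 2.42 and 2.60 in D6/Zbtb20S tissue and 4.74, 5.11 and 4.48 in wildtype tissue. The transgenic arrays were under the array median and the wildtype arrays above it, so the change of -2.29 ± 0.15 (adjusted p = 1.74e-05) may be compressed. The chemokine gene Cxcl14, a marker of retrosplenial cortex that cortical interneurons also express, read 3.58, 3.56 and 3.85 in D6/Zbtb20S tissue and 5.17, 4.89 and 5.80 in wildtype tissue. It too dropped under the array median in the transgenic group (-1.62 ± 0.20, adjusted p = 0.000872), and its other probe set, 1418456_a_at, fell by 1.34 ± 0.18 (adjusted p = 0.0041 over all probe sets). Beside the fall of Cxcl14, 2 of 13 GABAergic genes fell (3.64% of all genes did), with a list median of -0.13. The part of interneurons in the fall of Cxcl14 was not tested.

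Lypd1, a prototoxin that binds nicotinic receptors, read 5.74, 5.58 and 5.92 in D6/Zbtb20S tissue and 5.14, 5.15 and 5.52 in wildtype tissue. Its change of 0.48 ± 0.12 was just past the threshold (adjusted p = 0.0492), and it held with wildtype replicate 3 or D6/Zbtb20S replicate 2 dropped, but with none of the other 4 arrays dropped (adjusted p = 0.140 to 0.188). The trophoblast glycoprotein gene Tpbg, an inhibitor of Wnt signalling, read 4.23, 3.68 and 3.67 in D6/Zbtb20S tissue and 4.10, 4.43 and 4.34 in wildtype tissue (adjusted p = 0.143), and D6/Zbtb20S replicate 1 was the array that overlapped the wildtype group. Without that array Tpbg changed by -0.62 and passed (adjusted p = 0.0241). Nrep, the sodium channel subunit gene Scnn1a and the coronin gene Coro6 changed by -0.13, -0.01 and -0.03, and the lower bounds of their intervals were -0.31, -0.19 and -0.22.

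**Figure D3:**
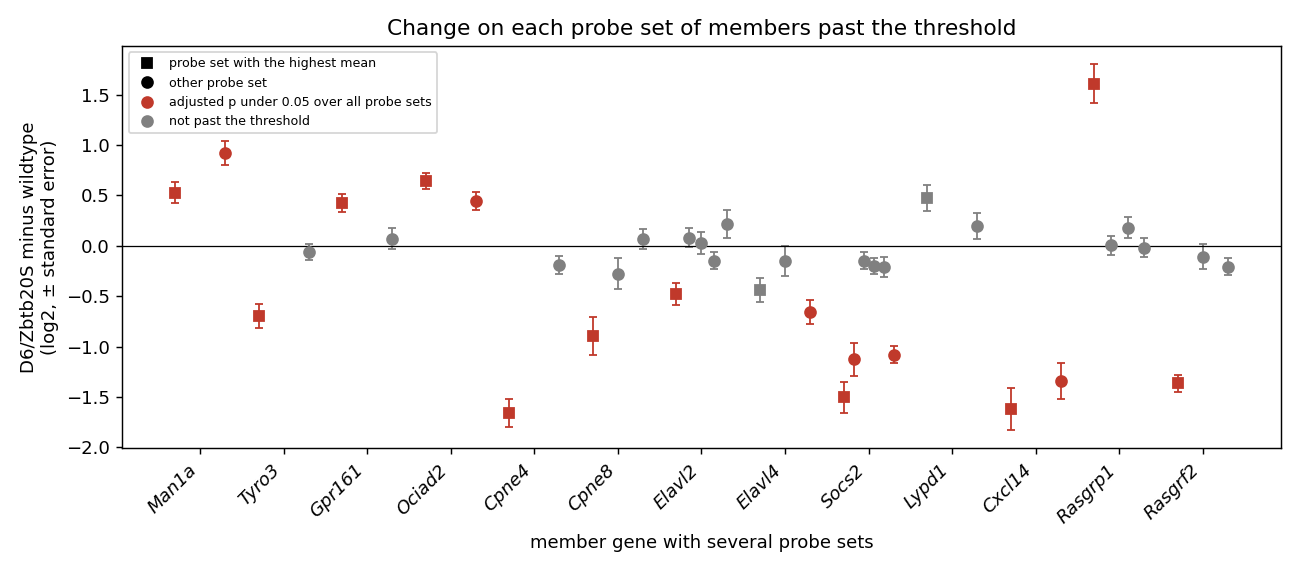
Change (log2, ± standard error, vertical axis) on every probe set of the 13 members past the threshold that have several, with squares for the probe set of highest mean and red for an adjusted p under 0.05 over all probe sets. Man1a, Ociad2, Elavl4, Socs2 and Cxcl14 have a red circle, a further probe set that passed in the same direction, and the other 8 members have none.

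Probe sets of one gene read different parts or forms of its message. Of the 15 members that passed, 13 had several probe sets, 5 had another that passed in the same direction, and 0 had another that passed in the opposite one. In all, 6 of 25 such further probe sets passed, where 5.52% of all probe sets did. No member outside the 15 had a further probe set past the threshold. Adjusted over all probe sets instead of genes, Lypd1 (adjusted p = 0.0803) and the Elavl4 set 1452894_at (adjusted p = 0.0708) did not pass.

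Further markers of the same fields, outside the 44, were read for comparison. They were chosen with earlier results of these arrays known, so their counts describe the lists and are not independent support. Over all genes 4.06% passed as higher and 3.64% as lower. Of 8 measured genes of the subiculum and retrosplenial cortex 7 fell and 0 rose, led by the zinc finger gene Tshz2 (-4.20 ± 0.12), the nuclear receptor Nr4a2 (-3.34 ± 0.13), neurotensin (Nts, -2.51 ± 0.13) and the Wnt enhancer Rspo2 (-2.002 ± 0.09). Their summed linear signal was 771 to 912 in D6/Zbtb20S arrays and 4319 to 5145 in wildtype arrays, and all but Gpr101 were above the array median on at least 1 array. Of 7 further CA1 genes 2 rose, the adhesion gene Nectin3 (1.89 ± 0.10) and the calcineurin subunit gene Ppp3ca (0.44 ± 0.08), and 2 fell, Grp (-3.03 ± 0.10) and Satb1 (-1.19 ± 0.12). Of 10 further genes of CA3 and the dentate gyrus 1 rose, the neuropeptide Y receptor gene Npy2r (1.70 ± 0.16), and 2 fell, the protease Prss12 (-0.93 ± 0.12) and Stxbp6 (-0.89 ± 0.12).

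**Figure D4:**
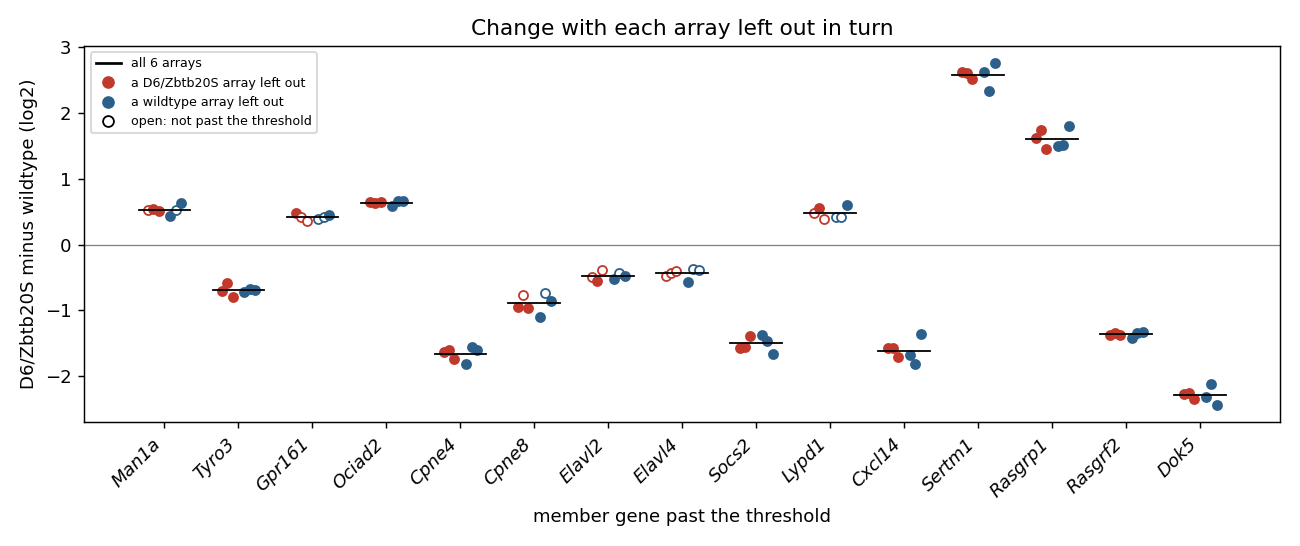
Change (log2, vertical axis) of the 15 members past the threshold with each array left out in turn, in red for a D6/Zbtb20S array and blue for a wildtype array, filled where the adjusted p stayed under 0.05, beside a black line for all 6 arrays. All points keep their sign, and Man1a, Gpr161, Cpne8, Elavl2, Elavl4 and Lypd1 have open points.

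Leaving out 1 array at a time, 9 of the 15 members kept their call in all 6 fits, namely Tyro3, Ociad2, Cpne4, Socs2, Cxcl14, Sertm1, Rasgrp1, Rasgrf2 and Dok5. The 6 others, Man1a, Gpr161, Cpne8, Elavl2, Elavl4 and Lypd1, lost it in at least 1. All 6 were lost together without wildtype replicate 2, which left 3 members higher and 6 lower. Every called member with a change of at least 2-fold was among the 9.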

How the data were processed

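RNA from pooled dissected tissue was measured on Affymetrix 3' expression arrays, 3 of D6/Zbtb20S and 3 of wildtype mice, grouped by the titles and genotypes in the labels. The values deposited by the authors are on a log2 scale, 1 for each probe set on each array. Per the submitters' processing notes RMA and limma were used, without versions, and the genome build is not given in the sources used here. The log2 scale was inferred from the range of the deposited values. Array medians differ, so the last scaling, and any centring, stays unknown. No depth exists for arrays, and their number limits the precision.

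Of 45101 probe sets, 64 controls were left out and 45037 tested. The platform annotation gave 34945 of them 1 symbol, 932 several and 9160 none; only the first kind was used, which gave 18193 genes. Nov was matched to Ccn3 through a RefSeq gene table. The 42 measured members had 83 probe sets.

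The comparison used lmFit and eBayes of limma 3.58.1 (R 4.3.3), with 1 coefficient per group, over all genes, with Benjamini-Hochberg adjustment, and all adjusted p-values are from it. A second fit over all probe sets served where said. Intervals are 95% intervals of the moderated fit. The pools may be technical replicates, so p-values cover only the spread among them. The fit was tested on simulated data. Python 3.11.15 with matplotlib 3.10.9 drew the figures.

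Members, comparison lists and cell type markers were chosen with earlier results of these data known. Every member past the threshold is described on each array, the rest by range or value; comparison lists name at most 4 called genes. Alternatives were a replicate block, each array left out, array weights, equal medians, an intensity trend, quantile normalization, an ordinary linear model, a filter on dim probe sets, the mean of probe sets, and thresholds of 0.01 and 0.1.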

Additional observations from a re-analysis of the deposited data

How the results depend on the processing

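No member changed direction with a call under any alternative tried. Of the 15 members past the threshold, 6 were higher and 9 lower. Leaving out 1 array gave 3 to 6 higher and 6 to 10 lower. The ordinary linear model without empirical Bayes left 2 higher and 3 lower (Sertm1, Ociad2, Dok5, Cpne4 and Rasgrf2), a threshold of 0.01 left 3 higher, and array weights gave 14 lower. All 15 were kept with equal array medians, quantile normalization, array weights and an intensity trend. Averaging each gene's probe sets kept 11, without Gpr161, Cpne8, Elavl2 and Lypd1. Within the groups, counted after the data were seen, CA1 genes higher numbered 1 to 5 over all alternatives, genes of CA3 and the dentate gyrus lower 1 to 7 and higher 0, and genes of the subiculum and neighbouring cortex 1 to 3 higher and 2 to 4 lower.

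Over all genes 1402 passed, against 777 without wildtype replicate 2, 837 without D6/Zbtb20S replicate 1, 267 with the ordinary linear model, 2707 with array weights and 693 at a threshold of 0.01. Same-numbered arrays did not deviate together (correlations of -0.22, 0.18 and -0.01 for numbers 1, 2 and 3), so the numbers were not taken to pair them. With the replicate block 7 members were higher and 9 lower, 14 of the 15 kept their call, Elavl4 lost it (adjusted p = 0.0599), and Wfs1 and C1ql3 gained one (adjusted p = 0.0355 and 0.0348). Dim signal limits the 10 members under the array median on every array. Probe-level data and detection calls were not used here.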
